A study of Mus musculus with 6 samples.

Results

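Complement is the protease cascade of blood and tissue that tags targets, recruits leukocytes and can perforate membranes. The set described here holds 8 of its genes: C3, C4b, C2, Cfb, Cfp, C1ra, C1s1 and Serping1. They were chosen by mouse gene symbol, mapped from the Ensembl identifiers of the deposited table, and all 8 had a row among the 25894 identifiers. RNA sequencing measured them in inguinal white adipose tissue, a fat depot under the skin of the groin. The donors were 6 female mice of the C57BL/6N strain aged 15 weeks, 1 per library, with tissue taken after 10 hours of fasting. Per the labels, 3 mice had 8 weeks of fragmented sleep followed by 2 weeks of recovery sleep (here fragmented, recovered 1 to 3) and 3 mice were controls (control 1 to 3). The labels name no transgene or drug in either group. The comparison asks whether complement transcripts in fat differed from controls after the recovery weeks. No library came from mice with fragmented sleep and no recovery, so a difference before recovery cannot be seen.

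The cascade starts by several routes. In the classical route the recognition protein C1q carries the proteases C1r and C1s, which C1ra and C1s1 encode in the mouse. C1s cuts C4 and C2, whose fragments form an enzyme that cuts C3, the central component. The alternative route amplifies the same step: factor B (Cfb) is cut by adipsin (Cfd) and builds another C3-cutting enzyme, which properdin (Cfp) stabilises. C1 inhibitor, the product of Serping1, is a serpin that blocks C1r and C1s. Liver makes most circulating complement, while fat is the classic source of adipsin and its stromal cells and macrophages make other components.

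None of the 8 genes passed the test between the groups. Of 22290 genes tested, 0% were called at a false discovery rate (FDR) of 0.05 by limma with Benjamini-Hochberg adjustment, and the 8 had adjusted p-values from 0.697 to 0.939. At an unadjusted p under 0.05 there were 0 members by limma, by edgeR with TMM scaling or by DESeq2, beside 5.39% of all genes tested by limma. By edgeR with scaling to library size alone there was 1, C1ra, beside 3.99% of all genes tested. C3, C4b and C2 had lower mean log2 levels in the fragmented, recovered mice, and the other 5 had higher ones. The median log2 difference over the 8 was 0.30, beside 0.02 over all genes tested, and 51.6% of all genes tested had a difference above 0. C1ra was the only member for which every fragmented, recovered mouse lay above every control, and 5.02% of all genes tested did so. No member had every fragmented, recovered mouse below every control, a pattern that 3.58% of all genes tested had. In 1 of 8 members, against 8.59% of all genes tested, the groups did not overlap in either direction. In bulk tissue, fewer cells of a type and less RNA per cell cannot be told apart.

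RefSeq promoter windows (build GRCm38.p6) were at hand for 4 of the 8, C3, Cfp, C1ra and C1s1. C3, the most abundant member, and the neighbouring genes C1ra and C1s1, which encode partner proteases, are shown. Each line gives the 250 bases before the annotated start, 5′ to 3′ on the gene's strand, with motif matches in capitals.
C3: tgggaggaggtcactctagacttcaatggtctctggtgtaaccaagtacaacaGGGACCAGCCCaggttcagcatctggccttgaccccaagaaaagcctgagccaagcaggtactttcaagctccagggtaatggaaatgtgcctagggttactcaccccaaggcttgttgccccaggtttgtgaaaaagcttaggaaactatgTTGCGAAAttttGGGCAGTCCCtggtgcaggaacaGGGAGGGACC
C1ra: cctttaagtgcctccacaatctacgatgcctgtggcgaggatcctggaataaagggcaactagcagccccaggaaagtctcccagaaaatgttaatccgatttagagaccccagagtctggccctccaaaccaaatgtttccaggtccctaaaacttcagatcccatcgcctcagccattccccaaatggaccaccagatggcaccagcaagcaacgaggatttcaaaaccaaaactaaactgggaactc
C1s1: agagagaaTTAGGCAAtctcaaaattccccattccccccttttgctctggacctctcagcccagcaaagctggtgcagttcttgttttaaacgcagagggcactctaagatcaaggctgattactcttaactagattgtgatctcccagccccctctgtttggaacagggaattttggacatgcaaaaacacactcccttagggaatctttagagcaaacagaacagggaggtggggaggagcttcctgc
These windows lie at chr17:57228137-57228386 on the minus strand for C3, chr6:124512371-124512620 on the plus strand for C1ra and chr6:124542360-124542609 on the minus strand for C1s1. Both strands were searched for TATAAA (the TATA box of many core promoters), TTGCNNAA (C/EBP), TTCNNNGAA (STAT), GGGNNNNNCC (a loose form of the NF-kB site) and GAAANNGAAA (interferon element), the last 4 being motifs of factors that act in the inflammatory control of complement genes. The C3 window held TTGCGAAA at positions -45 to -38 from the start, and the C1s1 window held TTAGGCAA, the same motif on the other strand, at -242 to -235. Of all 32841 windows of this length, 9.6% held a C/EBP match. C3 also held 4 matches of the NF-kB form, a pair of them overlapping, in company with 45.8% of all windows. The C1ra window held no match of the 5 motifs, nor did any of the 3 windows shown match the TATA, STAT or interferon letters, which 12.4%, 7.0% and 3.0% of all windows held. A further C1s1 window, of another annotated start, held 1 NF-kB match at -35 to -26, and the Cfp window held 1 at -10 to -1.

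C3 was by far the most abundant of the 8. Its normalised reads (reads divided by a size factor per library) were 32588.1, 20418.5 and 18673.5 in fragmented, recovered 1 to 3 and 23882.5, 34804.9 and 35744.5 in controls 1 to 3. Fragmented, recovered 1 thus sat with controls 2 and 3, control 1 sat with the lower mice, and the groups overlapped. The log2 difference was -0.42 (SE 0.35, 95% interval -1.2 to 0.36, limma adjusted p = 0.731). C3 alone took between 0.112% and 0.197% of all assigned reads of a library.

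C4b encodes the C4 protein whose larger fragment binds surfaces beside C2. Its values were 7327.7, 5446.4 and 4354.6 in the fragmented, recovered mice and 3402.0, 7051.2 and 8914.1 in controls. Control 1 was the lowest of all and control 3 the highest, so the controls spanned the other group. The log2 difference was -0.10 (SE 0.37, limma adjusted p = 0.939), with a 95% interval from -0.94 to 0.74. Its paralog C4a, annotated in GENCODE M21 as a processed transcript, had at most 8.29 normalised reads in any library, and reads could be split between these near-identical genes.

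C2 encodes the protease part of the classical C3-cutting enzyme. It had 464.5, 324.7 and 286.2 in the fragmented, recovered mice against 222.8, 612.7 and 609.4 in controls. The high mice were again controls 2 and 3 and fragmented, recovered 1, and control 1 was the lowest. The log2 difference was -0.31 (SE 0.42, 95% interval -1.25 to 0.62, limma adjusted p = 0.815). It was -0.071 without control 2, -0.075 without control 3 and -0.80 without control 1.

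Cfb, the alternative-route counterpart and neighbour of C2, was barely detected. It had 29.0, 23.5 and 8.13 normalised reads in the fragmented, recovered mice and 7.46, 21.5 and 16.7 in controls, from 7 to 31 reads per library. Both groups held a mouse near 8 and mice above 16. The log2 difference of 0.33 had an SE of 0.75 and a 95% interval from -1.35 to 2.01 (limma adjusted p = 0.897), and the interval takes in large changes in either direction. In GENCODE M21, 79.5% of the exonic bases of Cfb and 46.9% of those of C2 also lie in exons of other genes, mainly the gene model Gm20547, which spans both loci. Whether that model was in the annotation the authors counted with, and how shared reads were assigned, is not given in the sources used here, so the levels of both genes are uncertain. For C1s1 the shared part was 18.4% (with Gm16567), and for the other 5 members it was 0%.

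Properdin, the product of Cfp, is made by myeloid cells and is the positive regulator of the alternative route. Its values were 1588.3, 1104.4 and 469.5 in the fragmented, recovered mice and 668.3, 903.2 and 598.2 in controls. The fragmented, recovered group held both the highest and the lowest mouse. The log2 difference was 0.40 (SE 0.42, 95% interval -0.53 to 1.33, limma adjusted p = 0.767), and it was 0.016 without fragmented, recovered 1 and 0.89 without fragmented, recovered 3.

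C1ra, the gene of the protease C1r, showed the largest difference of the 8. It had 1650.5, 1488.3 and 1322.7 normalised reads in the fragmented, recovered mice and 1273.6, 682.7 and 1089.5 in controls. The groups did not overlap, but fragmented, recovered 3 and control 1 were close. The log2 difference was 0.59 (SE 0.28, 95% interval -0.03 to 1.21, unadjusted p = 0.0595, limma adjusted p = 0.697). An exact permutation test of 3 mice against 3 cannot give a two-sided p below 0.1. Without control 2, the lowest mouse, the difference was 0.33. The paralog C1rb, named after its values were seen, had 167.6 in fragmented, recovered 2 and 107.4 in control 2 and at most 25.3 elsewhere, and the counting could split reads between these similar genes.

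C1s1, the gene of the protease C1s, had 4621.8, 3210.9 and 3460.8 in the fragmented, recovered mice and 3453.2, 2602.1 and 3299.6 in controls. Apart from the high fragmented, recovered 1 and the low control 2, the other 4 mice lay close together. The log2 difference was 0.26 (SE 0.25, 95% interval -0.29 to 0.81, limma adjusted p = 0.755). Serping1, which encodes the inhibitor of both proteases, had 5377.6, 3429.4 and 3263.0 against 3537.4, 2742.3 and 3015.6. Fragmented, recovered 1 was again the highest and control 2 the lowest, and control 1 lay above fragmented, recovered 2 and 3. Its log2 difference was 0.35 (SE 0.26, 95% interval -0.25 to 0.94, limma adjusted p = 0.717). Without fragmented, recovered 1 the differences of C1s1 and Serping1 were 0.11 and 0.12.

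**Figure D1:**
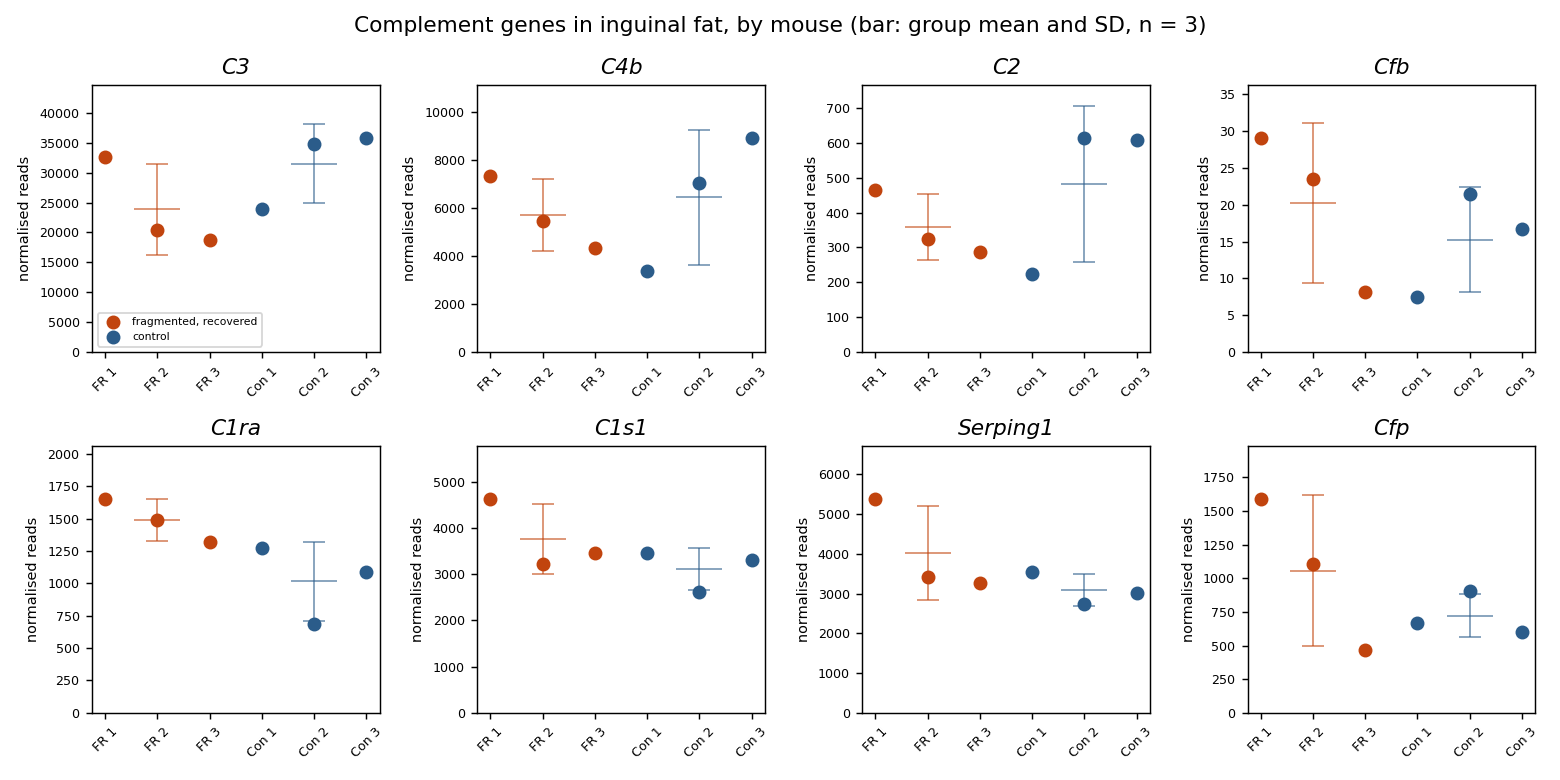
Normalised reads (vertical axis, from 0, scaled per gene) of the 8 complement genes in each library (horizontal axis; FR, fragmented, recovered; Con, control), with points for mice and bars for group mean and SD (n = 3). C1ra is the only panel in which the FR points, from 1322.7 to 1650.5, all lie above the control points, from 682.7 to 1273.6.

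Per kilobase of exon (union of GENCODE M21 exons), the members differed widely in level. C3 had a mean of 5383.1 normalised reads per kilobase over the 6 libraries. Serping1 (1531.6), C1s1 (1099.8) and C4b (1068.1) came next, then Cfp (511.9) and C1ra (419.7), and C2 (108.5) and Cfb (6.27) were last. The ranges over libraries overlapped between Serping1, from 1179.5 to 2313.0, C1s1, from 831.6 to 1477.1, and C4b, from 597.4 to 1565.3, so the order of these 3 is not separated by the spread between mice. The range of Cfp, from 270.5 to 914.9, overlapped those of C4b and C1s1 above it and of C1ra, from 229.0 to 553.7, below it. C3, at 3630.9 or more in every library, stood clear of all other members, and so did Cfb, at 10.3 or less. Adipsin, outside the 8, was higher still at a mean of 83336.9 per kilobase.

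Spread between mice differed by gene. The coefficient of variation over all 6 libraries was 19.1% for C1s1, 26.3% for Serping1, 27.0% for C1ra and 27.4% for C3. It was 33.8% for C4b, 40.0% for C2, 46.3% for Cfp and 48.8% for the thinly covered Cfb.

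For 6 of the 8 members the levels fell into a pair of patterns across mice, picked out after the values were seen. C3, C4b and C2, the substrates at the centre of the cascade, shared their 3 highest libraries: fragmented, recovered 1 and controls 2 and 3. C1ra, C1s1 and Serping1, the C1 proteases and their inhibitor, were highest in fragmented, recovered 1 and lowest in control 2. Fragmented, recovered 1 was the highest of its group for all 8 members and the highest of all 6 libraries for 5 of them (Cfb, Cfp, C1ra, C1s1 and Serping1), while it was the highest library for 18.8% of all genes tested. The shares of all genes tested with either pattern, or highest in fragmented, recovered 1 within that group, were not counted. Control 1 was the lowest of all libraries for C4b, C2 and Cfb, and fragmented, recovered 3 for C3 and Cfp.

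Ratios between members, which do not depend on library scaling, were steadier for some pairs than the genes themselves. Serping1 to C1s1 was 1.16, 1.07 and 0.943 in the fragmented, recovered mice and 1.02, 1.05 and 0.914 in controls. This coefficient of variation of 8.8% was the smallest of the 28 pairs of members, and 0.235% of all pairs of genes with a mean of at least 10 had one as small. C4b to C2 was 15.8, 16.8 and 15.2 against 15.3, 11.5 and 14.6, a coefficient of variation of 12.1% that 0.911% of all gene pairs reached. These pairs were singled out after their values were seen. The gene pairs behind both shares were not matched for level. Mean normalised reads were 3560.9 for Serping1, 3441.4 for C1s1, 6082.7 for C4b and 420.0 for C2. C3 to C4b varied more, from 3.75 to 4.45 in the fragmented, recovered mice and from 4.01 to 7.02 in controls, with the highest ratio in control 1.

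Of the 28 ratios, C3 to Serping1 was the only one whose groups did not overlap, 1 of 28 beside 8.78% of all gene pairs. It was 6.06, 5.95 and 5.72 in the fragmented, recovered mice and 6.75, 12.7 and 11.9 in controls. Control 1 lay much nearer the fragmented, recovered mice than the other controls. The share of separated ratios among the members was below that of all gene pairs, so this separation is given as a description only.

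Libraries differed in the makeup of the dissected fat. Recovered reads ranged from 15610201 to 19703569 per library. On the first principal component controls 2 and 3 lay at 116.2 and 111.5, fragmented, recovered 2 at 8.8, and the other 3 libraries between -90.6 and -69.0. All 12 adipocyte markers were in the table, and their summed level ranged from 614916.1 to 1081014.8 in the fragmented, recovered mice and from 664887.4 to 966588.2 in controls. Markers of B and plasma cells summed to between 1874.4 and 37861.3 in the fragmented, recovered mice and between 2166.8 and 93702.4 in controls. They were highest in fragmented, recovered 2 and controls 2 and 3. Of lymph node stroma genes, Glycam1 had 5484.3, 1968.0 and 402.1 in these libraries and 0.0 elsewhere, while Madcam1 had from 16.3 to 72.4 throughout. Whether the B cell markers came from lymph node was not tested. Skeletal muscle markers summed to between 536.3 and 86861.9 in the fragmented, recovered mice and between 303.0 and 10724.9 in controls. Fragmented, recovered 1 had the highest muscle sum.

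Macrophage markers, of which 12 of 12 were in the table and only Marco was near 0 in some libraries (2.13 or less in 3), summed to 24749.3, 19721.4 and 10358.8 in fragmented, recovered 1 to 3 and to 15736.6, 27447.4 and 23979.7 in controls 1 to 3. The 3 libraries with the highest macrophage sums were the same 3 that were highest in C3, C4b and C2. Lyz2 was the most abundant marker in these sums, and not every marker followed them. Of the 12, 9 were lower and 3 higher in the fragmented, recovered mice. Among the higher ones, Cd68 had 960.0, 564.4 and 325.0 in those mice and 385.8, 335.7 and 262.9 in controls. With the macrophage level as a covariate, added after the data were seen, the log2 differences of C3, C4b and C2 were -0.29, 0.12 and -0.09 (limma adjusted p from 0.943 to 0.984). This covariate was the mean log2 level over the markers, not their sum, so each marker counted alike. Marco, for one, had 2.07 in fragmented, recovered 1 and 392.9 in fragmented, recovered 2. Whether macrophage content lay behind the shared pattern was not tested. Fibroblast and progenitor markers summed to between 159430.1 and 254800.7 in the fragmented, recovered mice, highest in fragmented, recovered 1, and to between 148891.4 and 203111.1 in controls. Of hepatocyte markers, Alb had from 336.8 to 1281.2 normalised reads, with overlapping groups. For C1ra, C1s1 and Serping1 the log2 differences were 0.57, 0.26 and 0.37 with the macrophage level as a covariate. With the adipocyte level as a covariate, also added after the data were seen, they were 0.45, 0.13 and 0.19 (limma adjusted p from 0.847 to 0.904). Without fragmented, recovered 1 and control 2, the libraries highest in muscle markers, they were 0.25, -0.018 and 0.035 (limma adjusted p from 0.959 to 0.999). Fragmented, recovered 1 was also the highest library and control 2 the lowest for each of C1ra, C1s1 and Serping1. Leaving these libraries out therefore shrinks the differences whatever the muscle content.

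**Figure D2:**
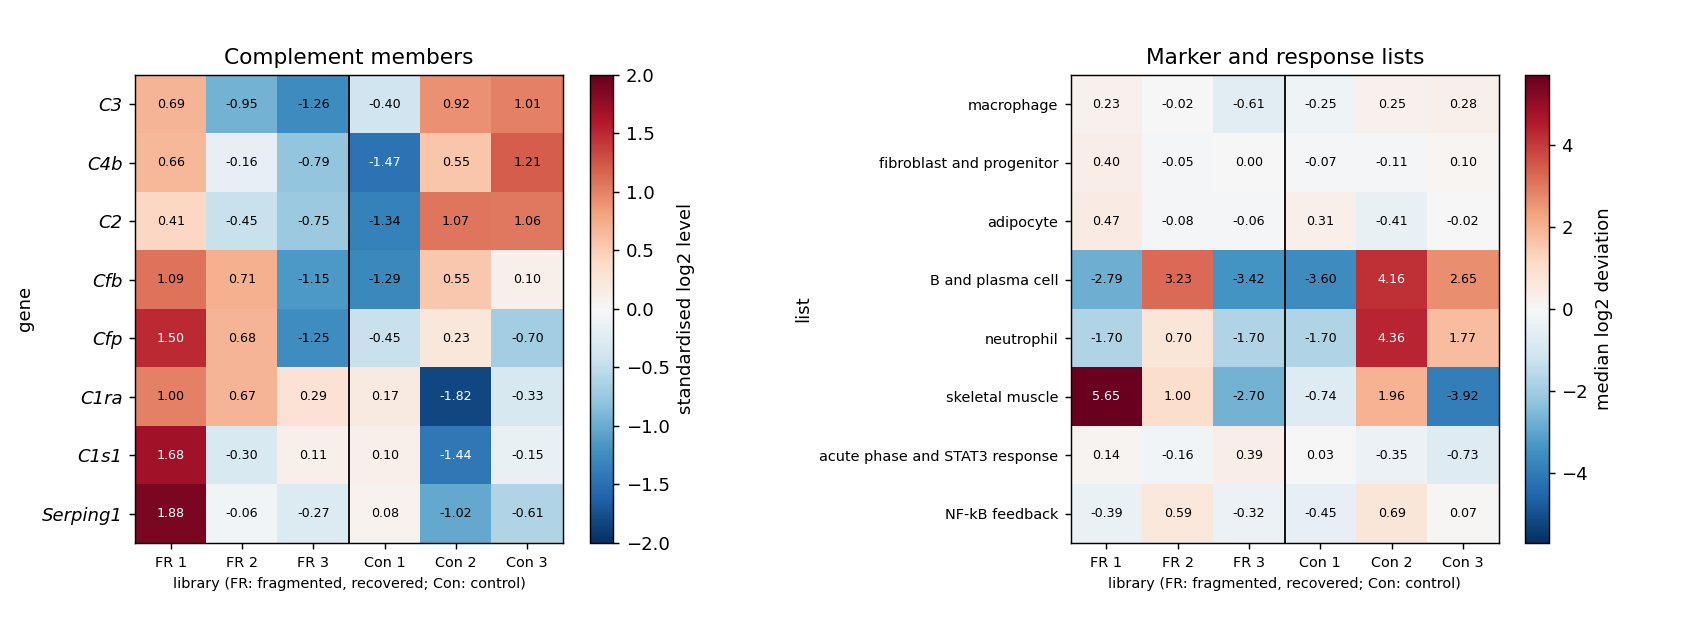
Left, log2 level of each complement gene in each library, standardised over the 6 libraries (colour and number, in SD units). Right, median log2 deviation of marker and response lists in the same libraries. C3, C4b and C2 are above 0 in FR 1, Con 2 and Con 3, while C1ra, C1s1 and Serping1 are lowest in Con 2, at -1.82, -1.44 and -1.02.

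Complement genes can be induced by interleukin 6 through STAT3 and by NF-kB. For the lists of genes that respond to these signals, the summed levels overlapped between the groups. Whether either signal acted on the complement genes was not tested. Of 17 acute phase and STAT3 response genes tested, 11 were higher and 6 lower in the fragmented, recovered mice (median log2 difference 0.53). By limma 0 passed. At an unadjusted p under 0.05 by limma there were 3 of 17, all higher, beside 3.24% of all genes tested that were higher. Among the higher genes, Cebpb had a log2 difference of 1.48 (SE 0.54), Lrg1 of 1.02 (SE 0.41) and Lbp of 1.04 (SE 0.45). Hp, haptoglobin and the most abundant of them, had 18708.1 in fragmented, recovered 1 and from 4398.2 to 4962.8 in the other 5 libraries. NF-kB feedback genes had 4 higher and 5 lower of 9 (median -0.18), and 0 passed. At an unadjusted p under 0.05 by limma there was 1 of 9, a lower gene, beside 2.14% of all genes tested that were lower.

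The rest of the complement system was read from lists by role. Of 50 other complement genes, 44 had a row and 39 passed the filter of a mean of at least 1. Of these, 22 were higher and 17 lower, and 0 passed by limma, edgeR or DESeq2. At an unadjusted p under 0.05 by limma there was 1 higher gene, C1qa, beside 3.24% of all genes tested. The median log2 difference was 0.14.

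Of the genes that start the classical route, C1qa, C1qb and C1qc encode the chains of C1q, which macrophages make. C1qa had 2408.4, 1970.7 and 595.9 in the fragmented, recovered mice and 999.7, 405.8 and 531.4 in controls. Its log2 difference was 1.24 (SE 0.52, 95% interval 0.07 to 2.41, limma adjusted p = 0.697). Fragmented, recovered 3 lay below control 1, so the groups overlapped. C1qc had a difference of 0.74 (SE 0.42) and C1qb of 0.33 (SE 0.45). Fragmented, recovered 1 was highest for all 3 chains.

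The lectin route starts from proteins that recognise sugars. Colec12, a scavenger receptor of the collectin family, had a log2 difference of -0.44 (SE 0.29), Fcna, a ficolin, 0.35 (SE 0.60), and Masp1, a protease that ficolins and collectins carry, -0.36 (SE 0.73). Cfd, the adipsin gene, had 163493.2, 74137.2 and 58373.5 in the fragmented, recovered mice and 92445.5, 30830.6 and 41740.0 in controls. Its difference was 0.86 (SE 0.55, 95% interval -0.38 to 2.1, limma adjusted p = 0.698), with control 1 above fragmented, recovered 2 and 3. C4a, at 8.29 or less, was too low to compare.

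The terminal components, which assemble into a membrane pore, were present at low levels. Hc, the mouse C5 gene, had a log2 difference of -0.56 (SE 0.35), C6 of -0.62 (SE 0.53) and C7 of -0.48 (SE 0.47), and of the 5 terminal genes tested 3 were lower and 2 higher. C6 had 216.7, 111.5 and 92.1 in the fragmented, recovered mice and 91.7, 293.9 and 303.0 in controls. The mice high in C6 were the same 3 that were high in C3, C4b and C2.

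Fluid-phase regulators act on complement proteins in solution. Clu, clusterin, had 2054.8, 5109.6 and 2728.5 in the fragmented, recovered mice and 2254.2, 4363.2 and 2174.5 in controls. Mouse 2 was highest in each group, and the log2 difference was 0.14 (SE 0.39, 95% interval -0.73 to 1.01, limma adjusted p = 0.918). Vtn, vitronectin, had a log2 difference of 0.64 (SE 0.35) and Susd4, listed with them and at 30.7 normalised reads or less, of 0.25 (SE 0.65). Clu is also on the list of lymph node stroma genes.

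Membrane regulators protect host cells. Cd59a, an inhibitor of the terminal pore, had a log2 difference of 0.01 (SE 0.28), Cd55, the decay-accelerating factor, of -0.52 (SE 0.36), and Cr1l, the rodent regulator Crry, of -0.17 (SE 0.24). Of 10 receptor genes, 8 were lower and 2 higher. Lrp1, an endocytic receptor that clears protease and inhibitor complexes, had -0.03 (SE 0.27), and Cd93 had -0.37 (SE 0.30). Cr2, a complement receptor of B cells and follicular dendritic cells, had 0.0, 540.1 and 3.61 in the fragmented, recovered mice and 2.13, 3105.1 and 1521.7 in controls (log2 difference -4.18, SE 2.74, 95% interval -10.32 to 1.97, limma adjusted p = 0.7). The 3 libraries high in Cr2 were those high in B and plasma cell markers, a list that also holds Cr2.

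**Figure D3:**
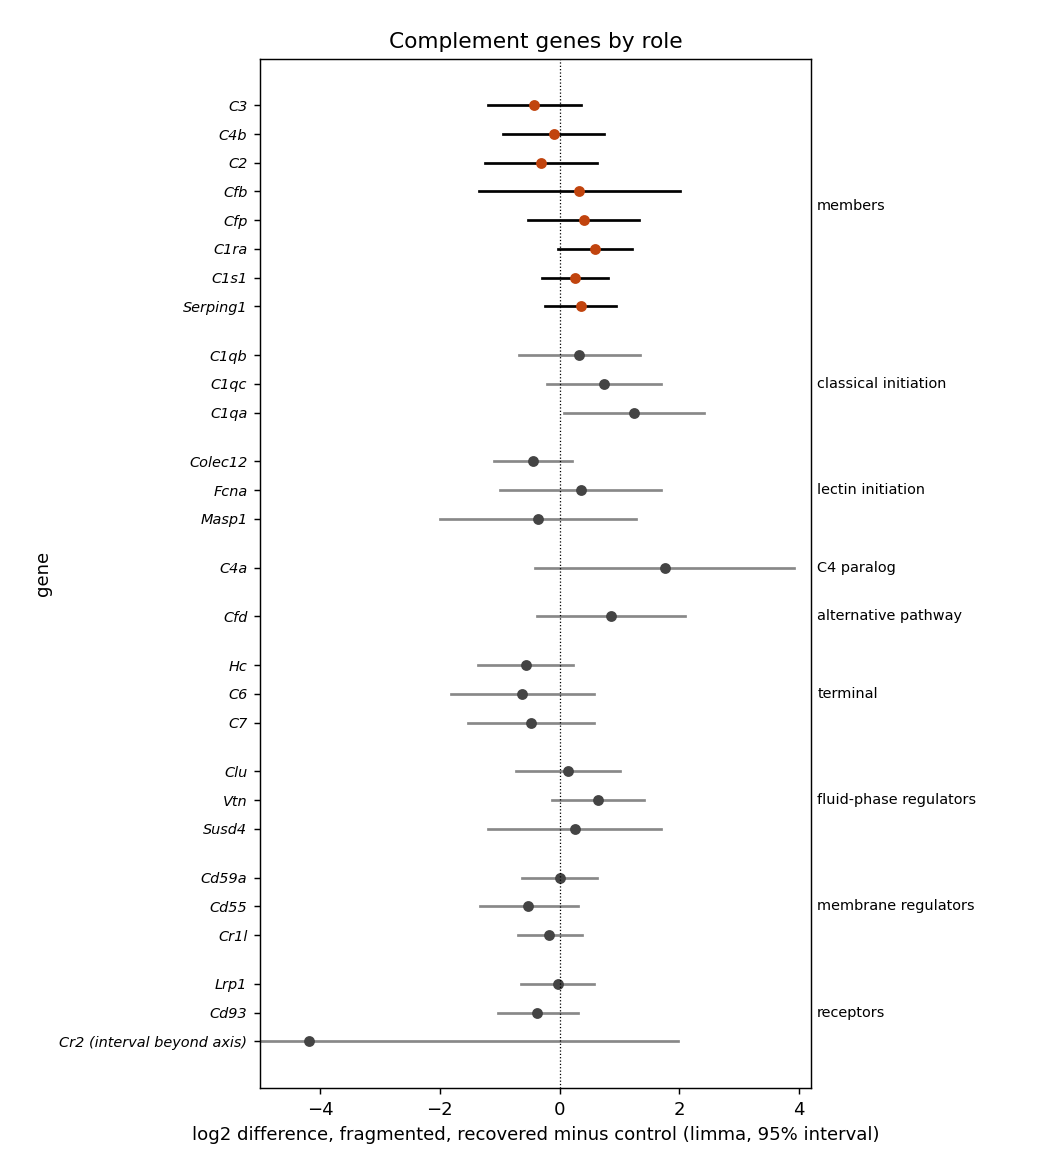
Log2 difference, fragmented, recovered minus control, with its 95% interval by limma (horizontal axis), for the 8 members and up to 3 of the most abundant other complement genes per role (vertical axis). The interval of C1qa starts just above 0, those of all 8 members include 0, and the interval of Cr2, from -10.32 to 1.97, runs beyond the axis.

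Among 11414 other genes with a mean of at least 100, those most like the mean standardised level of the 8 members over the 6 libraries were Cd209g, Hmox1, Dynll2, Snapc2 and Il1r2, with Pearson r from 0.966 to 0.993. Hmox1, haem oxygenase, had 779.6, 498.4 and 363.9 in the fragmented, recovered mice and 340.0, 403.5 and 505.8 in controls. All 5 genes were highest in fragmented, recovered 1, where the mean standardised level of the members was 1.11 against at most 0.20 in any other library. For C3 alone the nearest were Rnf149, Sri and Pwp1, with r from 0.987 to 0.991. With 6 libraries and 11414 genes searched, these values describe likeness only.

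The direction of a member's difference was steady for some genes and not for others. Over 24 alternatives in processing, C1ra stayed between 0.21 and 0.78, Serping1 between 0.035 and 0.48 and Cfp between 0.016 and 0.89, all above 0. Among the 24, the FDR of 0.1, the changed mean filters and the replicate block cannot move a log2 difference, so they say nothing about direction. C3 stayed between -0.67 and -0.26 except that it was 0.047 without the 3 libraries highest in B cell markers. C2 ranged from -0.80 to 0.71 and was above 0 only in that same setting. Cfb, from -0.089 to 0.97, and C1s1, from -0.018 to 0.41, also crossed 0. C4b turned to above 0 in 7 of the 24. No member passed an FDR of 0.05 in any of them, although 2 of them gave calls elsewhere. Without control 1, 3.79% of all genes tested passed, and C1ra had a limma adjusted p of 0.118. Limma-voom with quality weights and edgeR's expression filter, an alternative added after seeing the data, passed 6.34% of 16141 genes, each at an adjusted p of 0.0451 or more. There C1ra had 0.63, C2 -0.76 and C3 -0.63, with limma-voom adjusted p-values of 0.101, 0.102 and 0.117. These 3 of the 8 members were at an unadjusted p under 0.05, beside 32.9% of the genes tested in that fit. With the mean filter of 1 the 3 members at an unadjusted p under 0.05 by limma-voom with quality weights were also C3, C2 and C1ra, beside 24.0% of all genes tested. Without control 1 there were 2 by limma, C2 and C1ra, beside 24.4%.

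**Figure D4:**
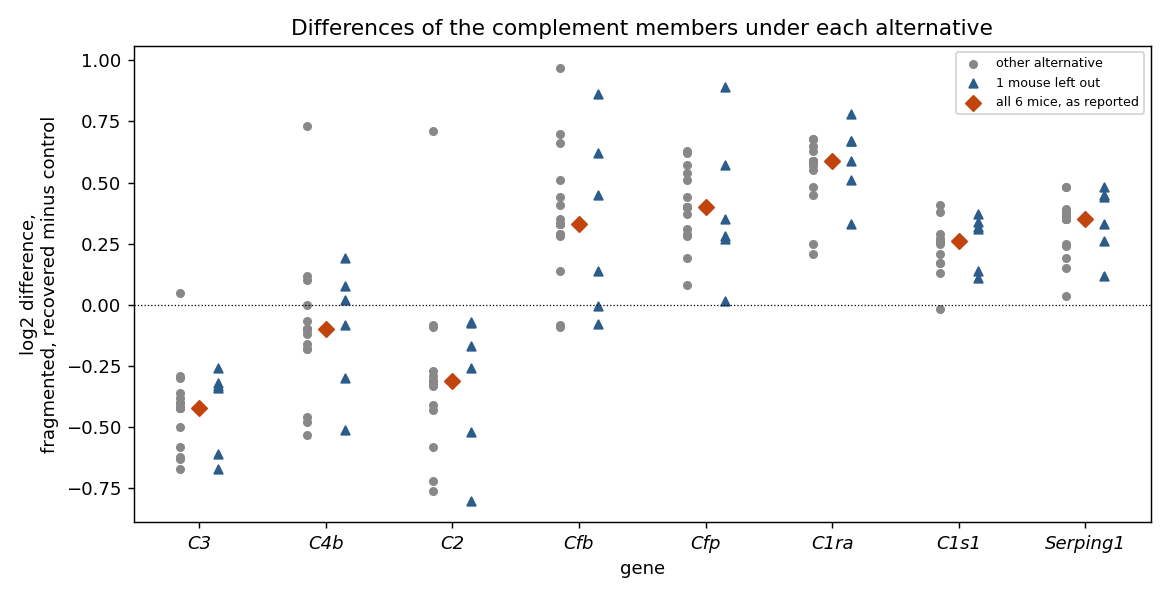
Log2 difference of each member (vertical axis; horizontal axis, gene) with all 6 mice (diamonds), with 1 mouse left out (triangles) and under the other alternatives (circles). C1ra, Serping1 and Cfp stay above 0 throughout, while C3, C4b, C2, Cfb and C1s1 each lie on both sides of 0.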

How the data were processed

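Reads were processed with CASAVA, HISAT2 (version 2.0.5) and featureCounts (version 1.5.0-p3) on the mouse build mm8, per the submitters' processing notes. The authors deposited a signal value for every Ensembl identifier in every library: gene counts scaled by a size factor, to judge by the values. When a column was divided by what 1 read is worth, its lowest value above 0, 100% of values came out within 0.02 of a whole number, and these reads summed to between 15610201 and 19703569 per library. Symbols came from a table of identifiers that left 33 unmatched. The annotation at hand is of another build than mm8, so coordinates are given only for RefSeq promoter windows.

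The main test was limma 3.58.1 (R 4.3.3) with an intensity trend, over all 6 libraries, with a pseudocount of 1 added before taking log2. Genes needed a mean value of 1 or more, which left 22290, and p-values were adjusted by Benjamini-Hochberg with an FDR of 0.05. On this scale the change of a low gene comes out too small. The design had assumed normalised values without naming this unit. As alternatives, the recovered reads were tested with edgeR 4.0.16 and DESeq2 1.42.0. They called 0 genes each, with 1018 and 1251 at an unadjusted p under 0.05 against 1201 by limma. DESeq2 left 118 adjusted p-values as NA.

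Tested on simulated data for this comparison with 22290 genes, limma found 0% of the 2-fold changes, 14.9% of the 4-fold changes and 53% of the 8-fold changes, and 3 of its 48 calls were false. Changed genes had a mean of at least 50.

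The members and lists were chosen with earlier results of these data known. All 8 members are named, with up to 3 of the most abundant other complement genes per role and the genes nearest in pattern (5 to the members' mean, 3 to C3). The 15 cell type and 2 response lists serve as values beside the results. One gene of the complement lists, left out of every count and median over them, and one further response list are not reported here. Alternatives covered normalisation, test, pseudocount, filter, threshold, replicate block, libraries left out, marker covariates, and GC content and length trends, removed by splines with 4 degrees of freedom and known for 99.87% of genes tested. A marker covariate was the mean log2 level over the genes of a list. The labels do not say that the numbers pair mice, so the main test did not take them to. Same-numbered mice deviated from their group means with correlations of 0.177, 0.393 and 0.042. These are not set beside those of differently numbered mice, so they do not decide whether mice were paired.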

Additional observations from a re-analysis of the deposited data

How the results depend on the processing

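No member passed an FDR of 0.05 or 0.1 under any of the 24 alternatives, nor did any other complement gene at 0.05. At 0.1, Cd55 and Cd59b passed without control 1 (limma adjusted p = 0.0956 and 0.0864). Colec12, C6 and Cd59b passed 0.1 by limma-voom with quality weights and edgeR's expression filter (adjusted p = 0.0696, 0.0735 and 0.0828). The shares of all genes passing 0.1 in these 2 settings are not given. Over all genes tested, the count of calls was 0 under each alternative with all 6 mice except limma-voom with quality weights and edgeR's expression filter, which called 1023 of 16141, and between 0 and 844 with 1 mouse left out. With the mean filter of 1 in its place, limma-voom with quality weights called 0 of 22290. The 844 came without control 1, where C2 had -0.80 and C1ra 0.78 (limma adjusted p = 0.127 and 0.118) and neither passed. With the replicate block 0 genes passed, the smallest member adjusted p was 0.392, for C1ra, and no call changed. There C1ra was at an unadjusted p under 0.05 by limma, as were 2676 of 22290 genes, against 1201 without the block. The smallest limma adjusted p over all genes was 0.0705 with the block. C1ra was also under 0.05 with quantile normalisation, among 1189 genes, and Cfp without fragmented, recovered 3, among 684. Directions turned for C4b, Cfb, C1s1, C3 and C2, and the cause was not tested. C4b turned to 4.9e-06 with quantile normalisation, 0.10 with the B and plasma cell level as a covariate, 0.12 with the macrophage level as a covariate, and 0.079, 0.019 and 0.19 without fragmented, recovered 3, control 2 and control 3, in a range from -0.51 to 0.19 with 1 mouse left out. Cfb turned to -0.081 by limma-voom with quality weights, -0.089 with the expression filter added, -0.0031 without fragmented, recovered 1 and -0.08 without control 1, in a range from -0.08 to 0.86 with 1 mouse left out. C1s1 turned to -0.018 without the 2 libraries highest in muscle markers, which were also the highest and the lowest of all 6 for C1s1. Without the 3 libraries highest in B cell markers, which leaves control 1 as the lone control and assumes that it varies like the other group, C3, C4b and C2 had 0.047, 0.73 and 0.71. This setting, the expression filter and the macrophage and adipocyte covariates were chosen after seeing the data. With the adipocyte level as a covariate C1s1 had 0.13 and Serping1 0.19, against 0.26 and 0.35 without it. Scaling by library size alone moved the median of all genes to 0.13 and turned no member. Of the 8 members Cfb rests on the fewest reads, 7 in its lowest library.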
